A study of Arabidopsis thaliana with 4 samples.

Results

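The TB series is the largest of the tile series on an Arabidopsis thaliana tiling array that was used to profile acetylation of lysine 56 of histone H3 (H3K56ac). Its members were chosen by tile ID alone, as every tile named TB followed by a plate number, a row letter from A to H and a column number, with a value in all columns of the table. There were 9577 such tiles of 21707 measured on the array (44.1%). They fill 100 plates of 96 wells, numbered 0 to 99, and 23 of the 9600 TB tiles had no value. Chromatin was from Col-0 seedlings without treatment, labelled as 10 days old and grown in liquid medium at 22 °C with 16 hours of light, and the DNA was amplified before labelling. Immunoprecipitated (IP) chromatin was set against input chromatin of the same preparation on 2-colour arrays. There was 1 group, with 2 chromatin preparations (I and II) and a dye swap of each, which makes 4 arrays.

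H3K56ac sits on the lateral surface of the nucleosome, where the DNA enters and leaves the particle. It is placed on newly made histone H3 before deposition in yeast, and in plants it is known as a mark of transcribed genes that is concentrated around their starts. A ChIP-chip profile therefore alternates along a chromosome between stretches rich in the mark and stretches poor in it, at a resolution set by the tiles and by the sheared chromatin fragments.

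Each value is a deposited log ratio of the IP and input channels, of which neither the log base nor the numerator is stated in the sources used here. A tile above the median is therefore a tile with a high deposited ratio, and whether that means more or less H3K56ac was not settled from these values. At each of the 21707 tiles the value was the same on both arrays of a preparation, so a dye-swap pair was counted as 1 sample and n = 2. The median over all tiles was subtracted from each preparation, and a difference of 1 is called 1 log unit. No tile was matched to a gene or a coordinate here. Distances are counted in wells, in the order of plate, row and column, which is the order of IDs and was not checked against the genome. Tests across tiles were made with limma, and a tile or step was called at an adjusted p under 0.05. Separate cultures for I and II are not stated in the labels. The p-values then measure only the spread between these 2 preparations, which may be technical. That spread is mostly pooled over tiles, so a small p does not show that I and II were alike at a given tile.

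Within the TB series the preparations agreed about as well as over the array. Spearman rho across the 9577 TB tiles was 0.874, against 0.903 across all tiles, and the tiles are not independent. The SD of the difference between I and II was 0.271 log units in TB, and the SD of the mean over TB tiles was 0.589. At 1560 TB tiles (16.3%) the preparations lay on opposite sides of the array median. The difference reached 1 log unit in size at 6 TB tiles. The farthest apart was TB68C11, at 0.540 in preparation I and 2.08 in preparation II. Differences between preparations were shared by neighbouring TB tiles to a small extent (r = 0.266 over adjacent tiles, 0.0239 over tiles 12 wells apart).

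TB lay above the array median as a series, but it was not evenly high. Its median was 0.202 log units in preparation I and 0.162 in preparation II. limma called 4101 TB tiles (42.8%) above the array median, where 33.3% of all tiles were called above. It called 1595 TB tiles (16.7%) below, where 30.9% of all tiles were called below, and 3881 TB tiles did not pass. Of the called TB tiles, 26 had opposite signs in I and II. At 1 log unit or more above the median there were 1291 TB tiles (13.5%), against 10.4% of all tiles. At 1 log unit or more below there were 34 (0.355%), against 3.07% of all tiles. The share was also low in other stretches. It was 0.268% in TA plates from 61, 0.471% in TA plates 0 to 20 and 0.312% in TC plates up to 13. These stretches held 10, 9 and 4 such tiles, of 667 on the array. Those of TA were cut outside its low stretches in these same data, so a low share there follows from the cut. The shares thus do not describe TA and TC as a whole. The middle 90% of TB tiles ran from −0.542 to 1.43 in preparation I and from −0.520 to 1.38 in preparation II. The zero point decides these splits. With values centred on the median of the TB tiles themselves, 3176 TB tiles were called above and 2822 below, and with values as deposited 846 and 6520.

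TB tiles, 44.1% of all tiles, made up 7 of the 10 highest tiles of the array and 52 of the 100 highest. Of the 10 lowest none was a TB tile, and of the 100 lowest 5 were. At 2 log units or more above the median lay 36 TB tiles (0.376%), against 0.332% of all tiles. The highest TB tile was TB15F09, at 3.68 in preparation I and 3.37 in preparation II. The second was TB16A09, at 3.26 and 3.14. TB15F09 exceeded TB16A09 by 0.415 in preparation I and by 0.224 in preparation II. A gap of 0.616 log units separated TB16A09 from the next tile, while the tiles ranked from 3 to 10 lay within 0.272 of each other.

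TB15F09 stood on a narrow hump that fell off on both sides. The tile before it, TB15F08, was at 1.35 in preparation I and 1.13 in preparation II. The tile after it, TB15F10, was at 2.57 and 2.25, which made it the fifth highest TB tile. TB15F11 followed at 0.915 and 0.667, and TB15F12 at −0.121 and −0.221. On the other side TB15F07 was at −0.342 and −0.0557, 2 wells before the maximum. The hump thus covered the 4 tiles from TB15F08 to TB15F11, all called above, and ended on both sides in tiles that were not called. Farther before it came a low stretch, in which TB15F03 (−0.989 and −0.659), TB15F04 (−0.676 and −0.548) and TB15F05 (−0.326 and −0.402) were called below.

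TB16A09 lay 36 wells after TB15F09 and had a different shape. It was preceded by a shelf of 4 tiles called above, TB16A04 to TB16A07, with means between 0.545 and 0.860. TB16A08 came next at 2.06 in preparation I and 1.80 in preparation II. After TB16A09 the ratio dropped to 0.606 and 0.137 at TB16A10, to 0.0101 and −0.323 at TB16A11 and to −0.433 and −0.471 at TB16A12, which was called below. The step from TB16A09 to TB16A10 was −2.83 ± 0.248 log units (mean ± SD, n = 2; limma adjusted p = 9.22e-05), the largest downward step among all adjacent TB tiles. Both preparations showed the same asymmetry, a shelf before TB16A09 and a sharp edge after it. TB16A03 had no value, so where the shelf began is not known.

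**Figure D1:**
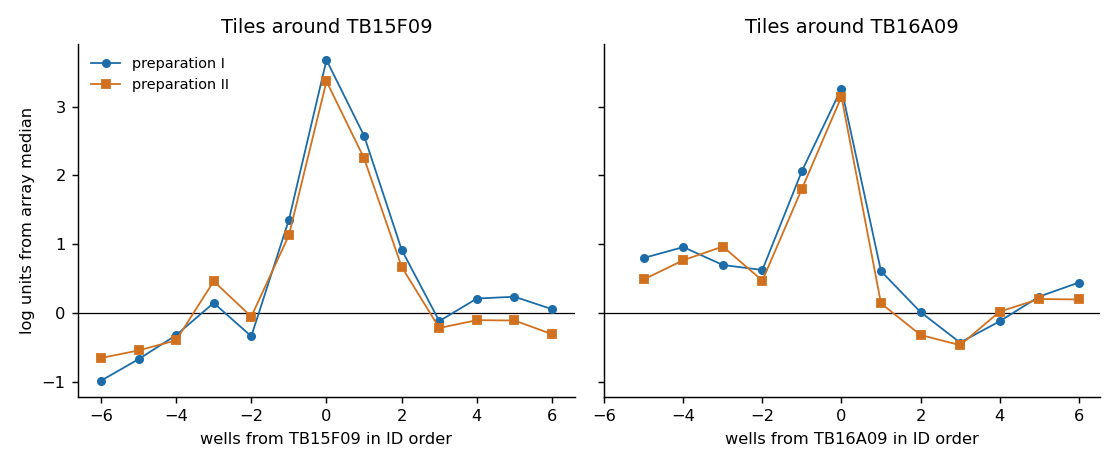
Log ratio in log units from the array median, in preparations I (circles) and II (squares), of the tiles within 6 wells of TB15F09 (left) and TB16A09 (right). The hump around TB15F09 falls on both sides, while TB16A09 follows a shelf of tiles with means between 0.545 and 0.860 and drops by a step of −2.83 to the next tile.

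The stretch between these maxima was not raised as a whole. Of the 34 tiles measured between TB15F09 and TB16A09, 14 were called above and 7 below, and their median was 0.204 in preparation I and 0.0883 in preparation II. It held a low gap with high shoulders. TB15H02 to TB15H05 were called below, with the lowest tile TB15H03 at −0.738 in preparation I and −0.294 in preparation II. The highest tiles within 3 wells on its sides had means of 2.02 and 1.93. Plate 15 lay under the TB median and plate 16 above it. The median of plate 15 was 0.0410 in preparation I and −0.0125 in preparation II, that of plate 16 was 0.303 and 0.252, and the median over TB was 0.202 and 0.162. Plate 16 also held TB16G08, one of the 10 lowest called TB tiles, at −1.27 and −1.12.

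The next 8 of the 10 highest TB tiles came from 7 other plates and plate 15. TB12A07 was at 2.50 in preparation I and 2.67 in preparation II, between neighbours with means of 0.302 and 0.787. TB02H12 was at 2.49 in both, next to TB02H11 at −0.113 and −0.447. These 2 maxima were a single tile wide at a level of 1 log unit. TB93F03, at 2.30 and 2.37, had a tile with a mean of 2.15 after it. TB49B11, at 1.98 and 2.69, and TB23G08, at 2.27 and 2.38, also had neighbours above 1.9 (means of 2.28 and 1.93). TB27E08, at 2.46 and 2.31, lay between means of 0.580 and 1.31, and TB69G10, at 2.23 and 2.40, between 1.11 and 0.536. Of the 20 neighbours of these 10 tiles, 19 were called above the median and 11 were at 1 log unit or more.

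At the low end the TB tiles reached less far. The lowest was TB69A12, at −1.77 in preparation I and −1.48 in preparation II (limma adjusted p = 1.32e-22), between tiles with means of −0.381 and 0.0680. TB94B09 followed at −1.56 and −1.52, between −0.301 and −0.397. Both were single tiles at a level of −1, with neighbours called below on 1 side of TB69A12 and on both sides of TB94B09. TB21G09, at −1.29 in each preparation, had a low tile before it (−0.981) and none after it (−0.0989). Others stood in low stretches, namely TB06F06 (−1.16 and −1.63) and TB06F08 (−0.914 and −1.46) in one, TB95H07 (−1.48 and −1.11) and TB95H09 (−1.36 and −1.04) in another, and TB08A05 (−1.08 and −1.30) in one more. TB80H10 was at −0.925 and −1.34. Of the 20 neighbours of the 10 lowest tiles, 16 were called below and 1 above. The tiles of TB06F05 to TB06F08 were lower in preparation II than in preparation I, all 4 by more than the SD of the difference between preparations over TB.

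Plate medians varied within a narrow band. In the mean of both preparations they ran from −0.140 (plate 28) to 0.545 (plate 38), with an SD of 0.142 over 100 plates. They were above 0 in both preparations in 81 plates and below 0 in both in 6. The 3 highest were plate 38 (0.561 in preparation I and 0.528 in preparation II), plate 70 (0.645 and 0.329) and plate 49 (0.485 and 0.446). The 3 lowest were plate 28 (−0.132 and −0.147), plate 81 (−0.148 and −0.0973) and plate 1 (−0.214 and 0.0325). The place of plates 70 and 1 in this order depended on the preparation. Their medians differed by 0.317 and −0.246 between I and II, and in plates 60, 64 and 66 the difference was also at least 0.2 in size (0.238, 0.329 and 0.273). Across the 100 plates, which share arrays, Pearson r between the medians of I and II was 0.831. Without these 5 plates 3895 TB tiles were called above and 1516 below.

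Each TB plate held between 18 and 71 tiles called above (median 40) and between 1 and 40 called below (median 15). Plates 38 and 70 each held 71 called above and only 1 called below. Tiles at 1 log unit or more above the median occurred in all 100 plates, between 5 and 23 to a plate with a median of 13. Tiles at 1 log unit or more below occurred in 20 plates. In 5 plates more tiles were called below than above. The interquartile range within a plate had a median of 0.768 log units and ran from 0.284 to 1.21.

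Along the series the level was lowest at the beginning. In plates 0 to 24 the median was 0.102 in preparation I and 0.0786 in preparation II, with 37.6% of tiles called above and 22.5% below. In plates 25 to 49 it was 0.208 and 0.186 (43.1% above, 14.2% below). In plates 50 to 74 it was 0.241 and 0.158 (44.3% above, 15.5% below), and in plates 75 to 99 it was 0.237 and 0.230 (46.3% above, 14.5% below). Plates 0 to 24 were the lowest in both preparations, while the order of the other 3 blocks of plates differed between I and II. High tiles made up 11.9%, 12.5%, 13.8% and 15.7% of the 4 blocks in ID order. The upper end moved little, with a 95th percentile between 1.39 and 1.48 in preparation I and between 1.32 and 1.43 in preparation II. The lower end of plates 0 to 24 lay deeper, with a 5th percentile of −0.661 in preparation I and −0.577 in preparation II, against −0.511 to −0.506 and −0.505 to −0.481 in the other blocks. By well position, the medians of the 8 plate rows lay between 0.159 and 0.190 and those of the 12 columns between 0.128 and 0.215. An effect of well position on the level was not tested.

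**Figure D2:**
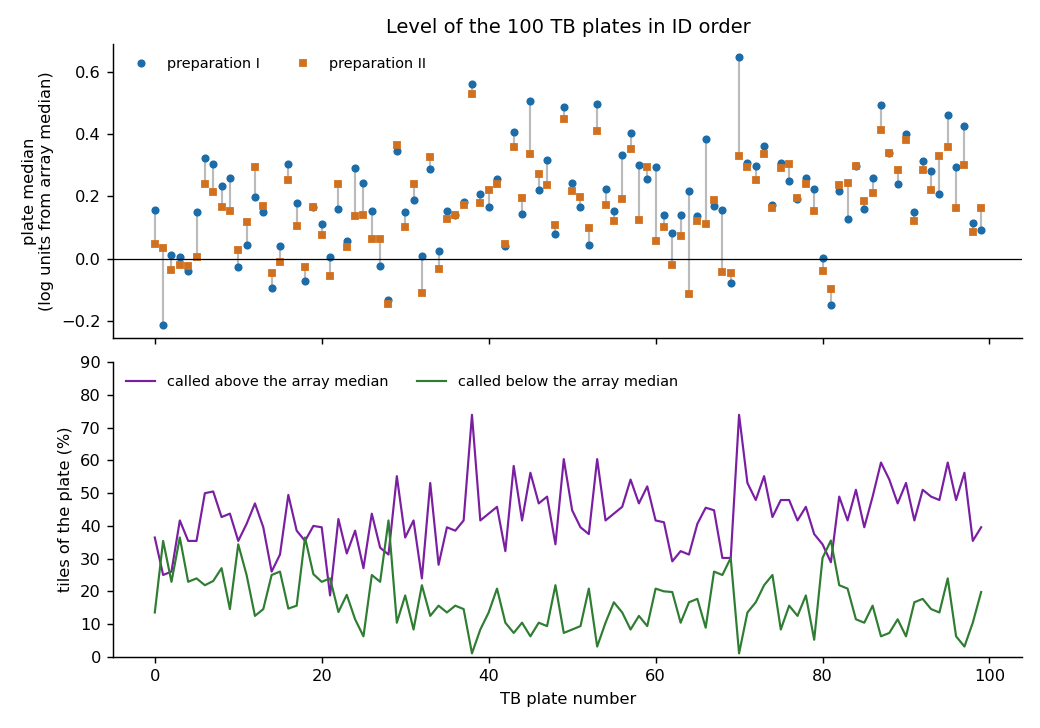
Upper panel, median log ratio of each TB plate in log units from the array median, in preparations I (circles) and II (squares), joined by a line; lower panel, percent of the plate's tiles called above and below the median by limma. Plate 38 is highest at 0.545 in the mean and plate 28 lowest at −0.140, and plates 1, 60, 64, 66 and 70 have the widest gaps between preparations.

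High tiles came in short runs. A high tile is one at 1 log unit or more above the array median in the mean of both preparations, and a run is a stretch of consecutive wells that are all high. The 1291 high TB tiles fell into 904 runs, 1.43 tiles long on average. Of these runs 610 (67.5%) were 1 tile long and held 47.3% of the high tiles. There were 224 runs of 2 tiles, 52 of 3, 13 of 4 and 5 of 5 tiles, and no run was longer. In preparation I alone 1426 TB tiles reached 1 log unit and in preparation II alone 1224. Both preparations reached it at 1045 tiles, which is 73.3% of those in I and 85.4% of those in II.

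The 5 longest runs of high tiles differed in height. TB49B08 to TB49B12 was the tallest, with a median of 1.98 in preparation I and 2.42 in preparation II. Its tiles were at 2.12, 1.18, 2.01, 1.98 and 1.25 in preparation I and at 2.42, 1.32, 2.56, 2.69 and 1.18 in preparation II. The second tile dipped in both, so that the run had 2 summits. After TB49B12 the ratio was back at a mean of 0.0692 in the next well. TB95E10 to TB95F02 had a median of 1.76 in preparation I and 1.30 in preparation II, with its highest tile TB95E12 at 2.36 and 2.05. TB57F09 to TB57G01 (1.22 and 1.30) ended in its highest tile, TB57G01, at 1.75 in preparation I and 1.58 in preparation II. The runs TB90A04 to TB90A08 (1.21 and 1.22) and TB74G08 to TB74G12 (1.09 and 1.07) were flatter, with means of 1.05 to 1.24 and 1.05 to 1.15.

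Starts of successive high runs were 7 wells apart at the median, with 25% at 4 or fewer and 25% at 13 or more. The distribution had a long tail, so that the mean spacing was 10.6 wells and the longest 90. Only 1 tile separated successive runs in 116 of 903 cases (12.8%). At a cutoff of 1.5 log units there were 310 runs, 269 of a single tile and 41 of 2 tiles, with a median spacing of 19 wells. At 2 log units there were 31 runs of 36 tiles, 26 of a single tile, and the median spacing was 187.5 wells. The mean length was 1.43 tiles at 1 log unit, 1.13 at 1.5 and 1.16 at 2, and the longest run was 5, 2 and 2 tiles. Runs were thus shorter at the higher cutoffs, and the spacing widened as the cutoff was raised. The longest stretch without a high tile ran over 88 wells from TB20F05 to TB21E08. Its median was −0.115 in preparation I and −0.176 in preparation II, and 7 of its tiles were called above and 29 below.

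**Figure D3:**
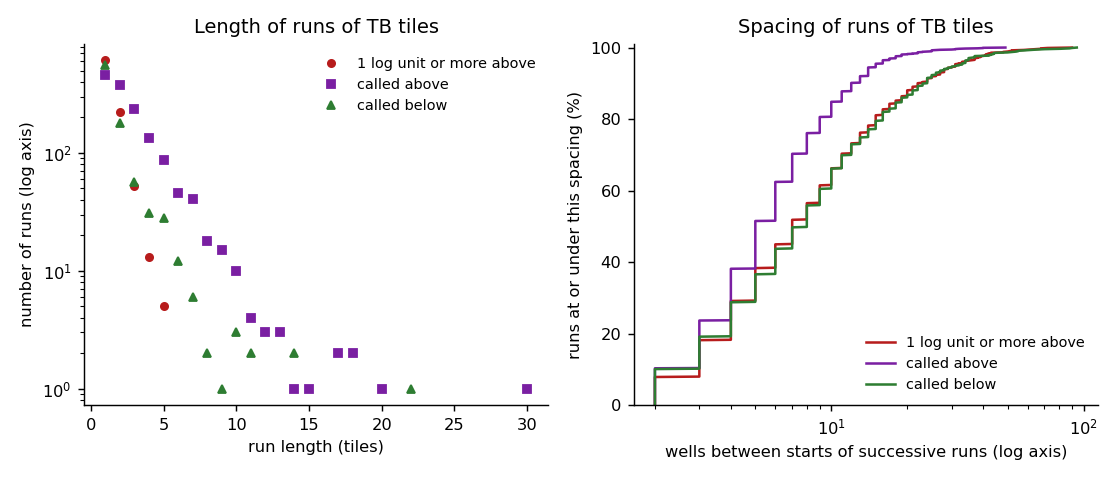
Left, number of runs of consecutive TB tiles (log axis) by run length in tiles; right, percent of runs whose start lies within a given number of wells of the start of the run before (log axis), for tiles at 1 log unit or more above the array median, tiles called above and tiles called below. Runs of high tiles end at 5 tiles, while the longest runs called above and below reach 30 and 22 tiles.

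Runs of tiles called above were longer, since the smallest mean that was called was 0.281. The 4101 tiles called above fell into 1438 runs, 2.85 tiles long on average, and their starts were 5 wells apart at the median. Of these runs 457 (31.8%) were a single tile, 236 had 5 tiles or more and 28 had 10 or more. The longest, TB37H12 to TB38C05, had 30 tiles with a median of 0.890 in preparation I and 0.875 in preparation II. No tile in it lay under a mean of 0.426 (TB38C01), and 9 of the 30 were high. Its maximum, TB38C05, had a mean of 1.18. The run was a plateau of intermediate level. After a single tile that was not called, TB38C06 at 0.177 and 0.0748, the ratio returned to 1.08 and 1.02 at TB38C07. Plate 38, which holds most of this plateau, was the plate with the highest median.

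Other long runs called above mixed plateaus with tall tiles. TB95D08 to TB95F03 had 20 tiles with a median of 1.09 in preparation I and 0.809 in preparation II, and it contained the run around TB95E12. TB80C07 to TB80D12 had 18 tiles (0.856 and 0.788) with a maximum of 1.68 at TB80C12. TB96D12 to TB96F05 also had 18 (0.714 and 0.605) and reached 1.65 at TB96E08. TB13C03 to TB13D07 had 17 (0.995 and 0.948), with its maximum of 1.94 at TB13D06, next to its end. TB41C05 to TB41D09 had 17 as well (0.782 and 0.756), with its maximum of 1.59 at TB41D08, again the last tile but one. None of these runs crossed a plate, while the longest did.

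Tiles called below were fewer and their runs shorter. The 1595 tiles fell into 884 runs, 1.80 tiles long on average, of which 559 (63.2%) were a single tile, 57 had 5 tiles or more and 8 had 10 or more. The longest was TB07G11 to TB08A08 with 22 tiles, and its median was −0.912 in preparation I and −0.911 in preparation II. It deepened over its course. TB07G11 was at −0.404 and −0.325, TB07H06 at −0.665 and −1.39, TB07H10 at −1.02 and −1.06 and TB08A05 at −1.08 and −1.30. Its last tile, TB08A08, was still at −0.719 and −0.914. Both edges were sharp, since TB07G10 before it was at 0.761 and 0.600, TB08A09 after it at 0.231 and 0.301, and TB08A10 already at 1.37 and 1.82. It contained the longest run at 1 log unit or more below the median, the 5 tiles TB08A03 to TB08A07.

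**Figure D4:**
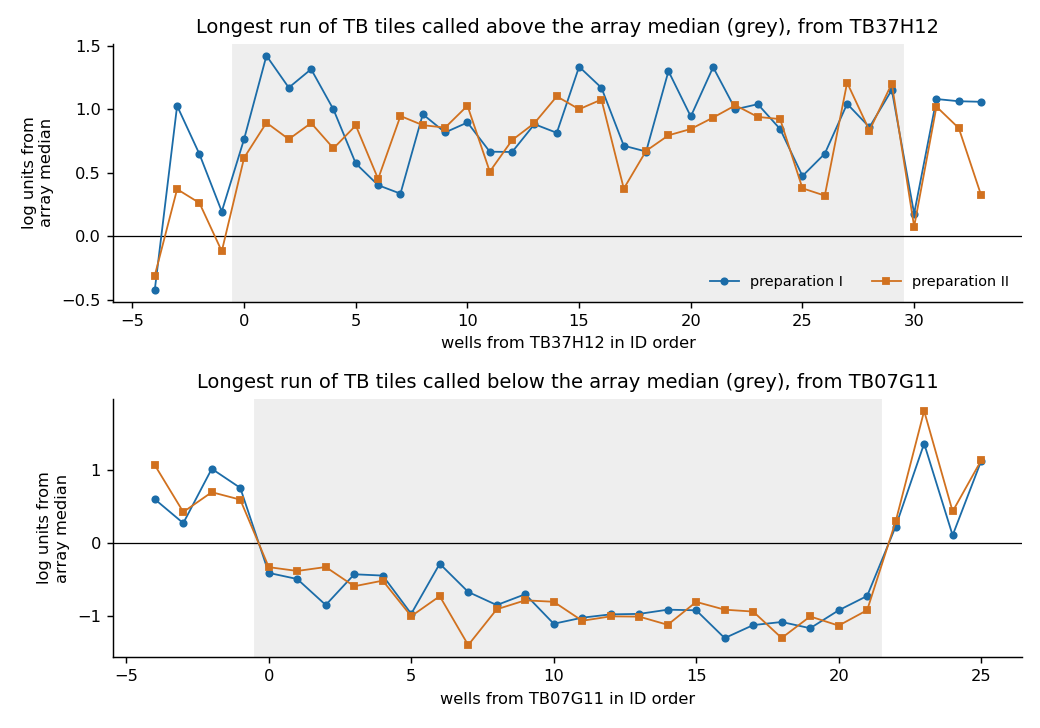
Log ratio in log units from the array median in preparations I (circles) and II (squares) along the longest run of TB tiles called above, 30 tiles from TB37H12 (upper panel), and called below, 22 tiles from TB07G11 (lower panel), both shaded, with 4 wells on each side. The upper run stays between means of 0.426 and 1.18, and the lower one starts at −0.364 and reaches −1.19.

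Other long low runs were TB18G07 to TB18H08 with 14 tiles (−0.799 in preparation I and −0.643 in preparation II), TB28E02 to TB28F03 with 14 (−0.700 and −0.597), TB01D10 to TB01E08 with 11 (−0.726 and −0.820) and TB73A07 to TB73B05 with 11 (−0.799 and −0.669). TB95G06 to TB95H03 had 10 tiles (−0.774 and −0.796). A few wells after it came TB95H06 to TB95H09, 4 tiles at −1.17, −1.48, −0.963 and −1.36 in preparation I and −1.03, −1.11, −1.08 and −1.04 in preparation II. Of windows of 24 wells laid end to end, 5 of 400 in TB had a median of −0.4 or less in the mean of both preparations, and none of these 5 lay next to another. The lowest was TB95G01 to TB95H12, at −0.682 in preparation I and −0.739 in preparation II. By the same measure no TB window of 48 or 96 wells reached −0.4. The lowest of 48 wells began at TB18E01, at −0.432 in preparation I and −0.269 in preparation II. The TB series therefore did hold low stretches, but none that brought a window of 48 wells to −0.4. This was not particular to TB. The lowest windows of 48 wells were at −0.389 in TA plates from 61, −0.317 in TA plates 0 to 20 and −0.174 in TC plates up to 13. At 24 wells, 5 of 156, 2 of 80 and 0 of 53 windows of these stretches reached −0.4. Plate 95 joined extremes of both kinds, with the run of high tiles at TB95E10 to TB95F02 and the lowest window of the series within 24 wells of each other.

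Local low gaps between tiles called above were described next, whose shoulders need not be high tiles. A low gap is a run of tiles called below with a tile called above within 3 wells on each side. Of the 884 low runs 336 (38.0%) were such gaps, 390 had a tile called above on 1 side and 158 on neither side. This share depends on the density of tiles called above, 42.8% in TB, and no share for other stretches is given here. The 336 gaps held 598 tiles, 37.5% of those called below. A single tile made up 221 of them (65.8%), 65 had 2 tiles and 50 had 3 or more. At the median their lowest tile lay at −0.413 and 1.06 log units under the lower of the highest tiles within 3 wells on each side. In 191 gaps that depth was 1 log unit or more and in 8 it was 2 or more. In 75 gaps the tiles directly on both sides were called above, and 55 of these gaps were a single tile. The count depends on the definition, since there were 62 gaps with a low tile at −0.5 or less, and 38 with the shoulders also at 0.5 or more in place of called above.

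The deepest gap was TB15H02 to TB15H05, described above, 2.45 log units under its lower shoulder. TB74F05 to TB74F12 was 8 tiles long and 2.35 under its lower shoulder, with its lowest tile TB74F11 at −1.24 in preparation I and −0.617 in preparation II. TB71A07 was a gap of 1 tile, at −0.432 and −0.395, with TB71A06 at 1.96 and 2.45 just before it and a tile of a mean of 1.92 within 3 wells after it. TB49A12 was another, at −0.476 and −0.755, between shoulders of 1.60 and 1.45. The 22 tiles of TB07G11 to TB08A08 were the longest gap, with shoulders of 0.862 and 1.59.

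Between successive high runs the ratio came down to the array median in most intervals, but not in all. Of the 903 intervals, 288 (31.9%) had no tile at or under it, and 421 (46.6%) held a tile called below. This followed the length of the interval. A tile called below occurred in 3.45% of the 116 intervals of 1 tile, in 17.7% of 271 intervals of 2 to 4 tiles, in 56.9% of 225 of 5 to 9 tiles, in 76.2% of 185 of 10 to 19 tiles and in 94.3% of 106 of 20 tiles or more. A longer interval has more tiles that can be called, so these shares describe the intervals and do not set a depth. The median of the lowest tile was 0.612 in preparation I and 0.488 in preparation II in intervals of 1 tile, and −0.643 and −0.605 in those of 20 or more.

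Neighbouring tiles were also compared with each other, which does not depend on the zero point. limma called 1868 of 9553 steps between adjacent TB tiles upward (19.6%), where 17.2% of all steps on the array were called upward. It called 1855 downward (19.4%), against 17.2% of all steps. The remaining steps did not pass, and the smallest step called was 0.392. Steps in I and II correlated at 0.864 across TB pairs, and every called TB step had the same sign in both. The size of a TB step had a median of 0.317 log units, and 1042 steps (10.9%) reached 1 log unit. Of 3722 called steps that had a later one, 2603 (69.9%) were followed by a called step in the opposite direction. Neighbouring steps share a tile, so a reversal is favoured by construction and this share does not measure alternation. Successive called steps were 2 wells apart at the median and at most 38, over the flattest stretch of the series from TB24G11 to TB25B12, where means stayed between −0.144 and 0.351.

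The largest upward step was from TB02H11 to TB02H12, at 2.77 ± 0.235 log units (mean ± SD, n = 2; limma adjusted p = 9.22e-05). It was followed in size by TB99H10 to TB99H11 (2.64 ± 0.256), TB78F04 to TB78F05 (2.61 ± 0.201), TB74F12 to TB74G01 (2.46 ± 0.164) and TB04C10 to TB04C11 (2.43 ± 0.192). In the case of TB99H10, TB78F04 and TB74F12 a tile with a mean of −0.855 or less was next to one of 1.61 or more. The step at TB74F12 crossed from row F to row G. Among downward steps TB71A06 to TB71A07 (−2.62 ± 0.318), TB20F04 to TB20F05 (−2.49 ± 0.369), TB36F02 to TB36F03 (−2.34 ± 0.250) and TB72C11 to TB72C12 (−2.31 ± 0.00170) came after that at TB16A09. The limma adjusted p of these 9 was 9.22e-05 to 0.000105.

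Humps were narrower than dips. A called rise that was next followed by a called fall enclosed a hump. A called fall next followed by a called rise enclosed a dip. Both are set by their steps alone, so a dip can be a flat stretch between humps and need not lie under the array median. There were 1302 humps and 1301 dips in TB. A single tile made up 58.1% of humps and 35.3% of dips. The width was 5 tiles or more in 4.84% of humps and in 20.4% of dips, with means of 1.82 and 3.20 tiles. Humps and dips share their steps and a tile can lie in neither, so no test was made of this difference. The other series had it too. In TA plates 0 to 20 the mean widths were 1.86 and 3.37 tiles, and in TC plates up to 13 they were 1.93 and 2.82.

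The scale of alternation was a few tiles. The correlation of tile means, across pairs of TB tiles that share arrays and preparations, was 0.468 at 1 well, 0.204 at 2, 0.124 at 3 and 0.0989 at 5. With one preparation at the first tile and the other at the second it was 0.432, 0.189, 0.115 and 0.0920. It was under 0.05 for the first time at 10 wells, stayed under it from 15 wells on and lay between −0.0231 and 0.0246 at the distances examined from 20 wells on. From 7 to 48 wells and at about 1 plate (95 to 97 wells) the highest value was 0.0697, at 7 wells. Relative to the TB median, 30.2% of adjacent pairs crossed from one side to the other in preparation I and 31.7% in preparation II, and 1843 crossings occurred in both. Stretches on one side of it had a mean length of 3.29 to 3.30 tiles in I and of 3.14 in II.

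Neighbours were alike within rows (r = 0.470 over 8756 pairs) and across a change of row (0.466 over 699). Across a change of plate r was 0.374 over 98 pairs, and 46.9% of these steps were called, against 38.7% within rows. These 98 pairs are few, and the lower value was not tested.

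The mean shape of a TB peak was read in the preparation that had not been used to find it. Peaks were tiles at 1 log unit or more that were the highest within 3 wells, which gave 704 peaks in one preparation and 766 in the other. At the peak the other preparation averaged 1.38 ± 0.0468 log units (mean and SD of the 2 directions). One well before it the level was 0.533 ± 0.0550 and one well after it 0.533 ± 0.0449. At 2 wells it was 0.248 ± 0.0280 before and 0.293 ± 0.0322 after, slightly under the level 6 wells away (0.326 before and 0.332 after). The sides of the mean peak were thus alike at 1 well. At 2 wells the later side was higher in both directions, which was not tested. The level was 0.228 before and 0.270 after in preparation II, and 0.267 and 0.316 in preparation I. Troughs, the lowest tile within 3 wells at −0.5 or less, averaged −0.457 ± 0.0280, with −0.130 ± 0.0140 one well before and −0.104 ± 0.00349 one well after, and were above 0 at 2 wells (0.125 and 0.119). Choosing the highest or lowest of 7 wells lowers or raises the flanks by construction, since the preparations are correlated.

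**Figure D5:**
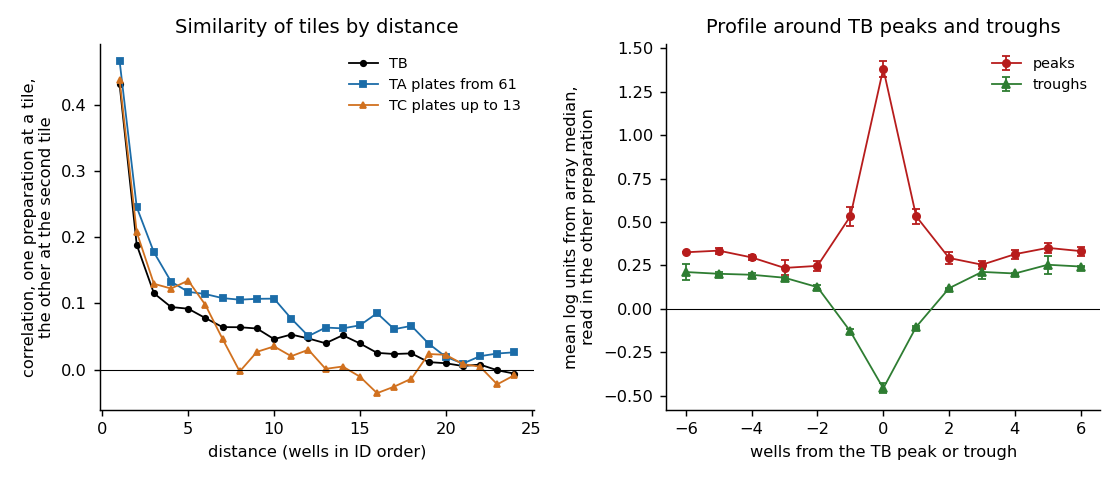
Left, correlation of tiles by distance in wells, with one preparation at the first tile and the other at the second, for TB, TA plates from 61 and TC plates up to 13; right, mean log ratio in log units from the array median around TB peaks and troughs found in one preparation and read in the other (points, mean; bars, SD of the 2 directions). The TB correlation falls from 0.432 at 1 well to 0.189 at 2 wells, and the peak profile is at 0.248 and 0.293 at 2 wells from the peak.

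Larger windows smoothed the alternation out. The SD of window medians over TB, in the mean of the preparations, was 0.318 at 12 wells, 0.261 at 24, 0.201 at 48 and 0.142 at 96. The highest window of 12 wells was TB49B01 to TB49B12 (1.28 in preparation I and 1.22 in preparation II), and the lowest was TB95H01 to TB95H12 (−0.926 in the mean of both). At 24 wells 4 windows of TB had a median of 0.8 or more. They began at TB03G01 (1.02 and 0.937), TB38A01 (0.920 and 0.884), TB49A01 (0.937 and 0.892) and TB87C01 (0.924 and 0.729). In that at TB38A01 all 24 tiles were called above, while that at TB49A01 held 18 called above and 3 called below. Plateaus and dense clusters of peaks thus gave windows of the same median.

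TB was set against 3 stretches of the other series, TA plates 0 to 20, TA plates from 61 and TC plates up to 13. The TA stretches leave out the low stretches of that series, which were known from these data. The TB median exceeded that of TA plates from 61 by 0.212 log units in preparation I and by 0.169 in preparation II, and that of TA plates 0 to 20 by 0.0856 and 0.0331. It was under that of TC plates up to 13, with differences of −0.0719 and −0.0656. Against the whole TA series the TB difference was 0.378 and 0.307, and against the whole TC series 0.523 and 0.455. These differences are given with no test, since the smallest two-sided p of an exact permutation test over 2 paired preparations is 0.5. All 5 had the same sign in both preparations. The share of tiles called above was 42.8% in TB and 30.8% in TA plates from 61. It was 39.5% in TA plates 0 to 20 and 47.3% in TC plates up to 13. The share called below was 16.7%, 26.2%, 20.6% and 17.0% in the same order. These shares were not tested against each other.

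The texture of the profile was described in the same way, with no test. High tiles formed 9.44 runs per 100 tiles in TB, 6.59 in TA plates from 61, 9.31 in TA plates 0 to 20 and 10.5 in TC plates up to 13, with 67.5%, 73.2%, 62.4% and 65.9% of the runs a single tile. Median spacings were 7, 9, 7 and 7 wells. Called steps made up 39.0% of TB pairs, 35.1% of pairs in TA plates from 61, 38.4% in TA plates 0 to 20 and 40.8% in TC plates up to 13. The correlation across preparations at 1 well was 0.432 in TB, against 0.467, 0.467 and 0.438 in the other 3. Plate medians had an SD of 0.142 in TB, 0.171 in TA plates from 61, 0.136 in TA plates 0 to 20 and 0.169 in TC plates up to 13. The longest run of high tiles was 5 tiles in TB, although TB has the most tiles, and 7, 5 and 8 in the others.

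The 23 TB tiles with no value were not spread evenly over the plates. Plates 61, 66 and 81 had 6 each, and plates 7, 16, 19, 22 and 23 had 1 each. In plate 61 they were every other well of row B and in plate 81 every other well of row A. A tile with no value ended a run, and when such tiles were skipped the number of high runs was 903 in place of 904.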

How the data were processed

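H3K56ac IP and input DNA of 2 chromatin preparations were hybridised to 4 arrays with dye swaps, per the labels. The deposited table holds 1 log ratio per tile and array, made by the authors. Neither its log base and numerator nor its normalization and software are given in the sources used here. Depth does not apply to arrays, whose number limits the precision. Columns of a preparation were averaged and the median over all tiles subtracted (deposited medians −0.737 and −0.925). limma 3.58.1 in R 4.3.3 (lmFit, eBayes, two-sided, Benjamini-Hochberg over all 21707 tiles or all 21567 adjacent pairs) gave calls. With 1 residual degree of freedom the spread is mostly pooled over tiles (134 prior degrees of freedom for tiles, 7.06 for steps). Fits and run functions were tested on simulated data. Runs, gaps and correlations used Python 3.11.15 and numpy 2.4.6. Named were the 10 highest and lowest called TB tiles, tiles within 6 wells of the maxima of plates 15 and 16, tiles of the longest runs, the 5 largest steps each way and the 3 highest and lowest plates. Further runs, gaps, windows and TB68C11 were named after their values were seen. Members, rules and lists were chosen with earlier results of these data known, and peak profiles, humps, intervals and blocks of 25 plates were added after seeing the data. Alternatives are given in the closing section.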

Additional observations from a re-analysis of the deposited data

How the results depend on the processing

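Counts of TB tiles moved most with the centring and with the minimum change tested. With values as deposited 846 were called above and 6520 below, and 96 lay 1 log unit or more above 0 and 2313 as far below. Centring on the mode gave 301 called below, with 2076 and 5 at 1 unit or more. Centring on the TB median gave 2822 called below, with 827 and 89. A treat test against a log2 of 1.5, a 1.5-fold change only if the base is 2, called 1584 above and 59 below, and 411 steps upward and 426 downward. As each preparation is moved by a constant, centring changed no step. Runs of high tiles numbered 85 with values as deposited, with a mean length of 1.13 tiles and a median spacing of 66 wells. Their mean length and median spacing were 1.70 and 6 at a cutoff of 0.8, 1.26 and 10 at 1.2, and 1.34 and 8 where both preparations had to reach 1. Low gaps numbered 62 with a low tile at −0.5 or less and 75 with called-above tiles in the next well on both sides. Without 1 preparation high tiles ranged from 1224 to 1426, tiles 1 unit or more below from 27 to 44, runs from 871 to 960, mean length from 1.41 to 1.49, spacing stayed at 7, gaps by fixed cutoffs of −0.5 and 0.5 ranged from 57 to 63 (38 in the mean), the correlation at 1 well from 0.442 to 0.474 and at 2 wells from 0.180 to 0.216, TB minus TA from 0.307 to 0.378 and TB minus TC from 0.455 to 0.523. Across preparations the correlation at 1 well was 0.432, with plate medians off it was 0.178 at 2 wells, and with means TB minus TC was 0.437. The other recomputed values, robust eBayes and quantile normalization included, stayed within 1.5 times for counts or the preparation SD for values, except the named tiles TB15F09, TB16A09 and TB69A12, whose values shift with the centring without a change of sign. The limma counts without 1 preparation were not run, since no residual degrees of freedom remain. No paired analysis was possible because there is 1 group. The flank distances, the counts at 1 unit under other centrings and the plates left out were chosen after seeing the data.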
